A study of Mus musculus with 8 samples.

Results

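The genes examined here are 54 genes of mitosis and the G2/M transition, taken by name from a list of CDK1 cyclin genes, mitotic kinases, spindle, kinetochore, cytokinesis and condensin genes and the transcription factors that act on them. A probe of the array carries the symbol of 51 of them, of 19084 genes with a symbol on the array, and the brightest probe stands for each gene. No probe used here carries Cdc20, Cks1b or Ccnb1, so they were not analysed. The RNA came from RAW264.7 cells, a mouse macrophage-like line. The stable lentiviral lines expressed a short hairpin RNA against luciferase (shLuc, the control) or against Dab2 (shDab2, the line shDab2-B), and both had been selected with puromycin. Dab2 (Disabled-2) is an endocytic adaptor protein. Each line received PBS or lipopolysaccharide (LPS, the outer membrane component of Gram-negative bacteria that Toll-like receptor 4 recognises) and was harvested 6 h later. The resulting 4 groups have 2 one-colour OneArray mouse arrays each. Each hairpin was represented by 1 line, so the knockdown and other differences between the lines cannot be told apart. No source says that the 2 arrays of a group came from separate cultures, and the p-values therefore measure the spread between arrays, which may be technical.

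Entry into mitosis is driven by cyclin-dependent kinase 1 bound to A- and B-type cyclins. The RNAs of this programme accumulate late in the cell cycle under FoxM1, B-Myb and the MuvB complex. Polo-like and Aurora kinases then build the spindle, the kinetochore ties chromosomes to microtubules, the spindle checkpoint delays anaphase until all are attached, and centralspindlin directs cleavage of the cell. RAW264.7 cells proliferate in culture, and LPS is known to slow the proliferation of macrophages.

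The deposited intensities were brought to a common distribution (quantile normalization), and all intensities below are on that normalized linear scale. Differences are on the log2 scale after adding 50 to the intensity, which understates changes of dim probes, and a gene was called when its limma p-value, adjusted over 26423 probes, was under 0.05. Of the 51 genes, 42 read at least 50 on every array, 5 were under 50 on every array (Cdk1, Cenpf, Ckap2, Kif20a and Nuf2) and 4 were under 50 on some (Melk, Mybl2, Ncapg and Nusap1). The 2 arrays of a group correlated over all probes at r = 0.995 to 0.996, and the members differed between them by a median of 0.05 to 0.08 on the log2 scale. All 8 macrophage markers with a probe read at least 50 on every array, whereas 4 of 5 T cell, 3 of 4 B cell, 5 of 5 fibroblast and 5 of 5 granulocyte markers were under 50 on every array. The summed fibroblast markers moved with LPS, reading 48.9 to 59.2 in shLuc cells with PBS and 9.0 to 10.1 with LPS, and 24.1 to 38.8 and 17.5 to 18.9 in shDab2 cells, with every gene under 50 on every array, and their part in the results was not tested. The probe of the targeted gene, Dab2, read 91.1 and 88.1 in shLuc cells with PBS, 52.2 and 72.4 with LPS, 59.1 and 76 in shDab2 cells with PBS, then 39.1 and 34.8 with LPS. Dab2 was lower in shDab2 cells on the group means, at -0.25 ± 0.12, adjusted p = 0.26 with PBS and -0.36 ± 0.12, adjusted p = 0.0577 with LPS, and neither difference passed the test. This probe read close to 50, where the added 50 compresses differences. The paper reported by Western blot that Dab2 protein was decreased in shDab2-B cells, which the arrays do not measure.

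Promoters of late cell cycle genes commonly hold a cell cycle homology region, whose core TTTGAA is bound by MuvB complexes, with CCAAT boxes, the binding sequence of NF-Y, upstream of it. Of the 54 genes, 45 had a promoter in the RefSeq table (GRCm38.p6, 250 bases before to 50 bases after the annotated start). TTTGAA, read on both strands, was present in 32 of these (71.1%), against 20.2% of 27025 genes with promoters of the same length. It lay within 50 bases of the start in 62.2% of the 45, against 5.72% of all these genes. CCAAT, read on both strands, was in 75.6% of the 45 and 41.1% of all, and both motifs stood in the same promoter in 64.4% and 7.97%. In mitotic genes outside the 54, TTTGAA was in 46.4%, CCAAT in 64.3% and both in 28.6%. In genes of DNA replication and G1/S the shares were 20.9%, 58.1% and 11.6%. The motifs do not overlap in their letters, and a match describes the sequence only. The 150 bases that end 50 bases past the start are shown for genes that the results turn on, with TTTGAA and CCAAT (or its reverse complement ATTGG) in capitals. Spc25 and Kif23 had the largest differences in LPS response between the lines. Plk1 and Racgap1 were called lower in all 4 pairwise comparisons after normalization, which for the lines with PBS depended on the scaling. Mybl2, a factor of the programme, has neither motif in the stretch.
Spc25 promoter, minus strand of chr2:69206164-69206313
Spc25: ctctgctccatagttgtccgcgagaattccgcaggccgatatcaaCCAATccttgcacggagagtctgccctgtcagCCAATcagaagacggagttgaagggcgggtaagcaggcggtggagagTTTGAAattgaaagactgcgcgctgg
Kif23 promoter, minus strand of chr9:61946750-61946899
Kif23: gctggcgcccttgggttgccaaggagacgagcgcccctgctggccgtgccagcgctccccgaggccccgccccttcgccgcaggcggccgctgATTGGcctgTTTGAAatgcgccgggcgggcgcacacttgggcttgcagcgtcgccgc
Plk1 promoter, plus strand of chr7:122159335-122159484
Plk1: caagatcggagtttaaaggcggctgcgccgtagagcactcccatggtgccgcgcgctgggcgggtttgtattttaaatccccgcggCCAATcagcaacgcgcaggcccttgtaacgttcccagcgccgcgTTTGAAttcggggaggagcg
Racgap1 promoter, minus strand of chr15:99651607-99651756
Racgap1: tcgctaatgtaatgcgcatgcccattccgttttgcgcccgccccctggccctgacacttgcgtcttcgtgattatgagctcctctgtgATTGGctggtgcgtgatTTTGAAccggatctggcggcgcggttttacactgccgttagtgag
Mybl2 promoter, plus strand of chr2:163054535-163054684
Mybl2: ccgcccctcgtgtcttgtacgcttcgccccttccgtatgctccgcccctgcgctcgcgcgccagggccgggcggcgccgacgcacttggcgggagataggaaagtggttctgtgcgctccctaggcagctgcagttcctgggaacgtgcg
In Spc25, Kif23, Plk1 and Racgap1 the TTTGAA starts 24, 2, 30 and 5 bases past the annotated start, and the nearest CCAAT or ATTGG lies upstream of it in each.

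Most of the mitotic genes were lower with LPS in both lines, and 18 of the 51 fell further in shDab2 cells by the test of that difference. In shLuc cells 42 of the 51 members were called lower (82.4%) and 0 higher, while 15.7% of all genes with a symbol were called lower and 11.6% higher. In shDab2 cells 45 were called lower and 0 higher, against 18.0% and 13.4% of all genes. The median log2 difference of the members was -0.55 in shLuc and -0.86 in shDab2 cells, beside a median of 0.00 over all genes in both. Among the 42 members at 50 or more on every array, the level left with LPS ranged from 33.8% to 93.5% of the PBS level in shLuc cells (median 64.6%) and from 25.5% to 88.9% in shDab2 cells (median 47.5%). The fall was larger in shDab2 cells for 40 of these 42, the exceptions being Cks2 and Pttg1. Counts past a fixed log2 size depend on the added 50 and on the scaling, and are given with no test. Past 1.5 after adding 50 were Ccna2 and Foxm1 in shDab2 cells (2 members, against 0.734% of all genes), and 0 members in shLuc cells. By the ratio of mean normalized intensities with nothing added, over genes not under 50 on both arrays of a group, 1 of 44 members was past it in shLuc cells (Foxm1, against 0.887% of genes) and 4 of 42 in shDab2 cells (Aurkb, Ccna2, Foxm1 and Spc25, against 2.20%). By the same ratio of the deposited intensities, without normalization, it was 3 of 43 (Ccna2, Foxm1 and Mybl2, against 1.71%) and 19 of 43 (against 5.50%). Over the 42 genes the LPS differences of the 2 lines, which share no array, correlated at r = 0.84. Because whole cultures were measured, fewer cells in G2 and mitosis and less of these RNAs per cell cannot be told apart.

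**Figure D1:**
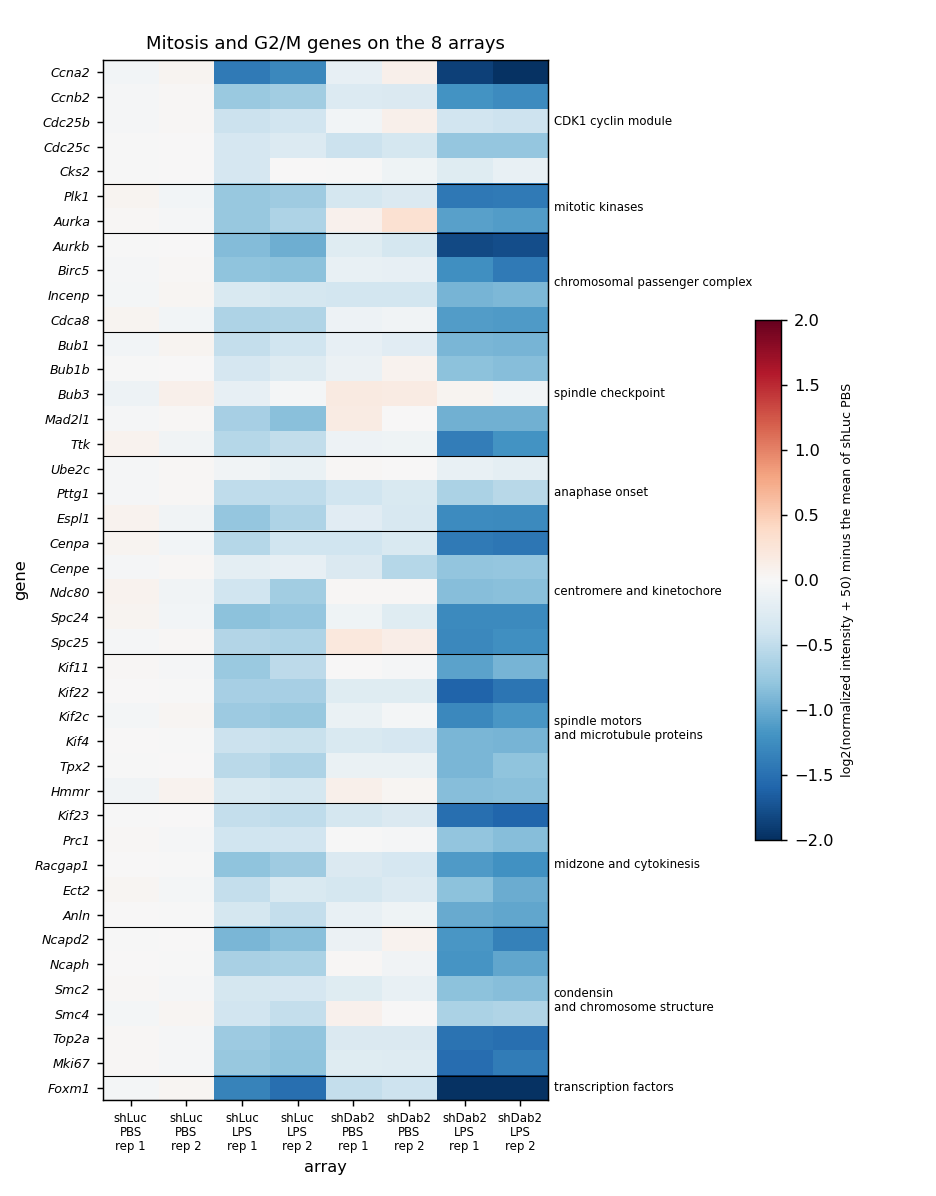
Rows are the 42 members at 50 or more on every array, grouped by role, and columns are the 8 arrays. Colour is log2(normalized intensity + 50) minus the mean of the 2 shLuc PBS arrays. The 4 LPS arrays are bluer than the PBS arrays in nearly every row, and the 2 shDab2 LPS arrays are the bluest, while Bub3 and Ube2c stay pale.

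The transcription factors of the programme had among the largest falls. Foxm1, which activates G2/M genes, read 848 and 894 in shLuc cells with PBS, 314 and 274 with LPS, 611 and 644 in shDab2 cells with PBS, then 184 and 183 with LPS. The arrays of the 4 groups did not overlap and stood in the order shLuc PBS, shDab2 PBS, shLuc LPS, shDab2 LPS. Foxm1 fell by 1.42 ± 0.07 (log2 ± SE) with LPS in shLuc cells (adjusted p = 9.82e-08) and by 1.54 ± 0.07 in shDab2 cells (adjusted p = 2.67e-08). Mybl2, the B-Myb factor of the MuvB complex, read 229 and 215 in shLuc cells with PBS, 89.3 and 80.8 with LPS, 107 and 133 in shDab2 cells with PBS, then 28.2 and 40.6 with LPS. Both shDab2 LPS arrays of Mybl2 were under 50, so its fall there is at least 2.39-fold, and in shLuc cells 38.3% of the PBS level was left. The log2 differences were -1.01 ± 0.11, adjusted p = 3.89e-05 in shLuc and -1.01 ± 0.11, adjusted p = 2.38e-05 in shDab2 cells. For neither factor did the difference between the 2 LPS responses pass the test, at -0.11 ± 0.10, adjusted p = 0.681 for Foxm1 and 0.00 ± 0.15, adjusted p = 0.997 for Mybl2. The added 50 compresses the Mybl2 value in shDab2 cells, so equal falls cannot be read from it. Both were also lower in shDab2 cells at rest, at -0.44 ± 0.07, adjusted p = 0.00272 for Foxm1 and -0.68 ± 0.11, adjusted p = 0.00249 for Mybl2. The size of these resting differences depended on the scaling. Before normalization Foxm1 read 833 and 886 in shLuc and 765 and 789 in shDab2 cells with PBS. Mybl2 read 229 and 219 against 134 and 166. Without normalization 1 of the 51 members was called lower in this comparison.

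Of the 6 measured genes of the CDK1 cyclin module, 4 were called lower with LPS in shLuc cells and 5 in shDab2 cells. Ccna2, cyclin A2, which binds CDK2 in S phase and CDK1 in G2, read 2638 and 2833 in shLuc cells with PBS, 991 and 1086 with LPS, 2444 and 2945 in shDab2 cells with PBS, then 714 and 659 with LPS. The PBS arrays of the lines overlapped, and the shDab2 LPS arrays were the lowest. Ccna2 had the largest mean fall of the 51 genes, leaving 38.0% of the PBS level in shLuc cells and 25.5% in shDab2 cells. Its log2 differences were -1.36 ± 0.09, adjusted p = 6.26e-07 and -1.89 ± 0.09, adjusted p = 2.15e-08. Ccnb2, cyclin B2, read 1183 and 1237 in shLuc cells with PBS, 707 and 726 with LPS, 989 and 986 in shDab2 cells with PBS, then 498 and 476 with LPS, and its groups did not overlap. It changed by -0.72 ± 0.06 and -0.95 ± 0.06 in the 2 lines. The phosphatases that switch on CDK1 moved less, and Cdc25b read 333 and 345 in shLuc cells with PBS, 239.8 and 248 with LPS, 324 and 365 in shDab2 cells with PBS, then 248 and 241 with LPS. Cdc25b differed with LPS by -0.40 ± 0.07 and -0.42 ± 0.07 and did not differ between the lines beyond the spread. Cdc25c read 345 and 346 in shLuc cells with PBS, 262 and 279 with LPS, 245 and 260.1 in shDab2 cells with PBS, then 180.5 and 182 with LPS, and was lower in shDab2 cells both with PBS (-0.39 ± 0.07, adjusted p = 0.00472) and with LPS (-0.47 ± 0.07, adjusted p = 0.000658). Cks2, a CDK-binding subunit, read 187 and 190.4 in shLuc cells with PBS, 138 and 189 with LPS, 187 and 174 in shDab2 cells with PBS, then 151 and 166 with LPS and was called in no comparison. Cdk1 itself had a probe between 16.4 and 39.1 on the 8 arrays, too dim for a fold. Its log2 difference with LPS was 0.07 ± 0.11, adjusted p = 0.75 in shLuc cells and -0.34 ± 0.11, adjusted p = 0.043 in shDab2 cells.

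The 3 genes grouped here as mitotic kinases, Plk1, Aurka and Melk, were called lower with LPS in both lines. Kinases listed under other roles are described there. Plk1, the polo-like kinase of mitotic entry and centrosome maturation, read 1691 and 1554 in shLuc cells with PBS, 942 and 972 with LPS, 1259.5 and 1313 in shDab2 cells with PBS, then 571 and 576 with LPS. Its 4 groups did not overlap, and 59.0% of the PBS level was left in shLuc cells and 44.6% in shDab2 cells. Aurka, the centrosomal Aurora kinase, read 1934 and 1888 in shLuc cells with PBS, 1107 and 1227 with LPS, 2029.6 and 2366 in shDab2 cells with PBS, then 872 and 853 with LPS. The shDab2 PBS arrays of Aurka were the highest and the shDab2 LPS arrays the lowest, and the LPS difference was -0.69 ± 0.08 in shLuc and -1.30 ± 0.08 in shDab2 cells. Melk, a kinase of dividing cells, was under 50 on every LPS array, and its fall with LPS was at least 1.75-fold in shLuc and at least 1.27-fold in shDab2 cells.

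The chromosomal passenger complex, which corrects faulty attachments and later acts in cytokinesis, fell as a group, with 4 of 4 members called lower in each line. Aurkb, its kinase, read 3775 and 3832 in shLuc cells with PBS, 2073 and 1916 with LPS, 3213 and 2959 in shDab2 cells with PBS, then 1048 and 1083 with LPS. The groups did not overlap, and the difference was -0.92 ± 0.06 in shLuc and -1.49 ± 0.06 in shDab2 cells. Birc5 (survivin) read 2619 and 2699.8 in shLuc cells with PBS, 1502 and 1487 with LPS, 2383 and 2364 in shDab2 cells with PBS, then 1105 and 967 with LPS, with differences of -0.81 ± 0.06 and -1.16 ± 0.06. Cdca8 (borealin) read 2786 and 2559 in shLuc cells with PBS, 1730.4 and 1733 with LPS, 2476 and 2544 in shDab2 cells with PBS, then 1207 and 1184 with LPS, and its PBS arrays were lower in shDab2 cells on the mean (-0.09 ± 0.06, adjusted p = 0.464), which did not pass the test. Incenp, the scaffold that activates Aurora B, read 3064 and 3259.6 in shLuc cells with PBS, 2559 and 2464 with LPS, 2438 and 2442 in shDab2 cells with PBS, then 1639.9 and 1672 with LPS. Incenp moved least of the complex with LPS, at -0.33 ± 0.05 and -0.55 ± 0.05, and differed about as much between the lines, at -0.37 ± 0.05 with PBS and -0.59 ± 0.05 with LPS.

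In the spindle checkpoint, 4 of 5 genes were called lower with LPS in each line. Ttk (Mps1), the kinase that starts checkpoint signalling, read 1023 and 922 in shLuc cells with PBS, 639 and 679 with LPS, 901 and 912 in shDab2 cells with PBS, then 343 and 396 with LPS. The PBS arrays of the lines were close, and the shDab2 LPS arrays lay far below the shLuc LPS arrays. Mad2l1 (Mad2) read 1681 and 1728 in shLuc cells with PBS, 1054 and 937 with LPS, 1924 and 1711 in shDab2 cells with PBS, then 853 and 848 with LPS, with differences of -0.75 ± 0.07 and -1.05 ± 0.07. Bub1b (BubR1) changed by -0.30 ± 0.07 in shLuc and -0.81 ± 0.07 in shDab2 cells, and the Bub1 kinase by -0.44 ± 0.06 and -0.73 ± 0.06. Bub3, which carries Bub1 and BubR1 to the kinetochore, was the member of this group that was not called, and its brightest probe read 3797 and 4341 in shLuc cells with PBS, 3638 and 3969 with LPS, 4611 and 4577 in shDab2 cells with PBS, then 4241 and 3923 with LPS. The LPS and PBS arrays of Bub3 overlapped in shLuc cells, and its differences were -0.09 ± 0.07, adjusted p = 0.455 and -0.17 ± 0.07, adjusted p = 0.131.

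The anaphase genes split. Espl1 (separase), the protease that cuts cohesin, read 699.6 and 635 in shLuc cells with PBS, 368 and 416 with LPS, 561 and 526 in shDab2 cells with PBS, then 249.9 and 246 with LPS, and changed by -0.70 ± 0.08 and -0.99 ± 0.08. Pttg1 (securin), its inhibitor, read 3449 and 3569 in shLuc cells with PBS, 2445 and 2458 with LPS, 2664 and 2838 in shDab2 cells with PBS, then 2245 and 2385 with LPS. The shDab2 PBS arrays of Pttg1 lay nearer to the LPS arrays than to the shLuc PBS arrays, and its difference was -0.51 ± 0.06, adjusted p = 5.06e-05 in shLuc and -0.24 ± 0.06, adjusted p = 0.00696 in shDab2 cells. Ube2c, the ubiquitin-conjugating enzyme of the anaphase-promoting complex, read 1784 and 1834 in shLuc cells with PBS, 1726 and 1644 with LPS, 1829 and 1822 in shDab2 cells with PBS, then 1630.4 and 1571 with LPS. It was called lower in shDab2 cells alone (-0.18 ± 0.05, adjusted p = 0.0247; shLuc -0.10 ± 0.05, adjusted p = 0.248), and the difference between the lines, -0.08 ± 0.08, adjusted p = 0.681, did not pass the test.

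Among centromere and kinetochore genes, 5 of 7 were called lower with LPS in shLuc and 6 of 7 in shDab2 cells. Cenpa, the histone H3 variant that marks centromeres, was the brightest of them and read 18649 and 17276 in shLuc cells with PBS, 12068 and 13626 with LPS, 13548 and 14498 in shDab2 cells with PBS, then 6711 and 6592 with LPS. The shDab2 LPS arrays of Cenpa were far below all others, the shLuc LPS and shDab2 PBS arrays overlapped, and 71.5% of the PBS level was left with LPS in shLuc cells and 47.4% in shDab2 cells. Spc25, a subunit of the microtubule-binding Ndc80 complex, read 1089 and 1116 in shLuc cells with PBS, 719.6 and 698 with LPS, 1282 and 1207 in shDab2 cells with PBS, then 421 and 443 with LPS. With PBS the shDab2 arrays of Spc25 were above the shLuc arrays and with LPS they were below, at 64.3% and 34.7% of the respective PBS levels. The partner subunits Spc24 and Ndc80 read 834 to 2174 and 143 to 313 over the 8 arrays. Spc24 changed by -0.79 ± 0.07 and -1.12 ± 0.07, and Ndc80 by -0.55 ± 0.10 and -0.86 ± 0.10, while Nuf2, under 50 throughout, was not called. Cenpe, a kinetochore motor, read 752 and 774 in shLuc cells with PBS, 664 and 676 with LPS, 617 and 498 in shDab2 cells with PBS, then 419.8 and 425 with LPS. It differed more between the lines (-0.43 ± 0.08 with PBS and -0.61 ± 0.08 with LPS) than with LPS (-0.18 ± 0.08, adjusted p = 0.184 in shLuc and -0.36 ± 0.08, adjusted p = 0.00731 in shDab2 cells). Cenpf was called lower with LPS in both lines from arrays that all read under 50, which gives no fold.

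Of 8 spindle motors and microtubule proteins, 7 were called lower with LPS in each line, Ckap2 being the exception with a dim probe. Kif22, a motor that pushes chromosome arms, read 2400.4 and 2369.5 in shLuc cells with PBS, 1481 and 1484 with LPS, 1998 and 2012 in shDab2 cells with PBS, then 755 and 834 with LPS. Its groups did not overlap, and 62.1% and 39.6% of the PBS level was left in shLuc and shDab2 cells. Hmmr, a spindle assembly protein, changed by -0.33 ± 0.06 in shLuc and -0.91 ± 0.06 in shDab2 cells. Kif2c, which removes tubulin from microtubule ends, changed by -0.74 ± 0.07 and -1.15 ± 0.07. The falls in shLuc and shDab2 cells were -0.64 ± 0.10 and -0.99 ± 0.10 for Kif11, the motor that separates the poles, and -0.57 ± 0.08 and -0.73 ± 0.08 for Tpx2, an activator of Aurora A. Those of Kif4, a motor of chromosomes and the midzone, were -0.44 ± 0.06 and -0.60 ± 0.06. Nusap1, at 51.9 or less on every array, was called lower in both lines with no usable fold.

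Cytokinesis genes were called lower in 5 of 6 cases in each line, Kif20a being under 50 throughout. Kif23, the motor of centralspindlin, read 3780.2 and 3842 in shLuc cells with PBS, 2718 and 2658 with LPS, 2985 and 3101 in shDab2 cells with PBS, then 1303 and 1243 with LPS. Its difference was -0.50 ± 0.05 in shLuc and -1.23 ± 0.05 in shDab2 cells, with no overlap between any groups. Racgap1, the partner of Kif23 in centralspindlin, read 1684 and 1653 in shLuc cells with PBS, 929 and 994 with LPS, 1354 and 1310.2 in shDab2 cells with PBS, then 732 and 688 with LPS, and fell in both lines, at -0.77 ± 0.06 and -0.86 ± 0.06. The difference between the lines was -0.73 ± 0.08, adjusted p = 0.000249 for Kif23 and -0.10 ± 0.08, adjusted p = 0.658 for Racgap1. Prc1, which bundles midzone microtubules, changed by -0.39 ± 0.05 and -0.80 ± 0.05. Anln (anillin), a scaffold of the cleavage ring, changed by -0.42 ± 0.06 and -0.91 ± 0.06. Ect2, the exchange factor that activates RhoA at the equator, changed by -0.39 ± 0.08 and -0.59 ± 0.08.

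Condensin and chromosome structure genes were called lower in 6 of 7 cases in each line. Top2a, the topoisomerase that untangles sister DNA, read 4682 and 4532 in shLuc cells with PBS, 2771 and 2652 with LPS, 3745 and 3763 in shDab2 cells with PBS, then 1616 and 1589 with LPS, and Mki67, the Ki-67 protein that coats mitotic chromosomes, read 4177 and 4006 in shLuc cells with PBS, 2408 and 2322 with LPS, 3440.5 and 3418 in shDab2 cells with PBS, then 1394 and 1525 with LPS. For both, the 4 groups were apart in the order shLuc PBS, shDab2 PBS, shLuc LPS, shDab2 LPS. The differences were -0.75 ± 0.05 and -1.20 ± 0.05 for Top2a and -0.78 ± 0.06 and -1.21 ± 0.06 for Mki67. Among condensin subunits Ncapd2 read 1590.5 and 1595 in shLuc cells with PBS, 819 and 866 with LPS, 1457 and 1676 in shDab2 cells with PBS, then 686 and 594 with LPS, with differences of -0.88 ± 0.08 and -1.23 ± 0.08, and Ncaph changed by -0.65 ± 0.07 and -1.09 ± 0.07. The shared ATPases moved less, Smc2 by -0.34 ± 0.06 and -0.64 ± 0.06 and Smc4 by -0.43 ± 0.06 and -0.67 ± 0.06. Ncapg was the exception, with a dim probe that read 50.4 and 31.4 in shLuc cells with PBS, 60 and 46.2 with LPS, 43.9 and 47.4 in shDab2 cells with PBS, then 81.5 and 66.4 with LPS. Its difference was 0.19 ± 0.13, adjusted p = 0.377 in shLuc and 0.37 ± 0.13, adjusted p = 0.0528 in shDab2 cells, and under several other settings the latter passed the test, with adjusted p from 0.0254 to 0.0494.

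**Figure D2:**
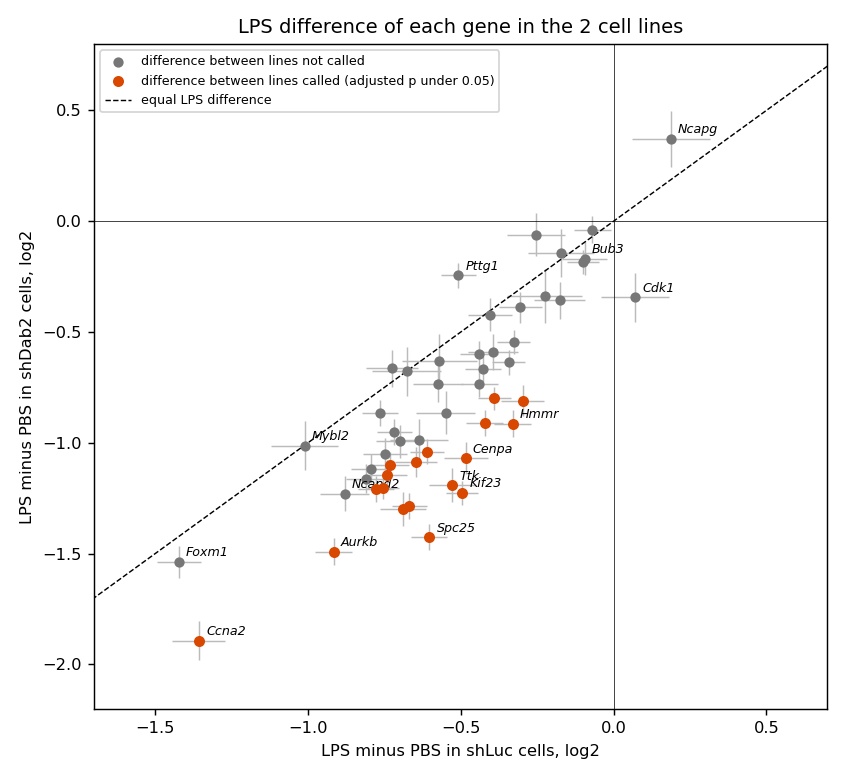
Each point is one of the 51 members, with the log2 difference of LPS minus PBS in shLuc cells on the horizontal and in shDab2 cells on the vertical axis, and bars of 1 standard error. Most points lie below the dashed line of equal difference, and the 18 orange points are those whose difference between the lines was called.

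For 18 members the LPS difference was larger in shDab2 than in shLuc cells by a test of that difference itself, and for 0 it was smaller, against 3.08% and 2.72% of all genes. The median difference over the 51 members was -0.29, beside -0.01 over all genes. Spc25 had the largest value, -0.82 ± 0.08, adjusted p = 0.000229, followed by Kif23 (-0.73 ± 0.08, adjusted p = 0.000249) and Ttk (-0.66 ± 0.11, adjusted p = 0.00488). Kif22 (-0.62 ± 0.08, adjusted p = 0.00145), Aurka (-0.61 ± 0.11, adjusted p = 0.00787) and Cenpa (-0.59 ± 0.10, adjusted p = 0.00754) came next. By role, the called members were 1 of 6 in the CDK1 cyclin module (Ccna2), 2 of 3 kinases (Plk1 and Aurka), 2 of 4 passenger genes (Aurkb and Cdca8) and 2 of 5 checkpoint genes (Bub1b and Ttk). They also included 2 of 7 kinetochore genes (Cenpa and Spc25), 3 of 8 spindle genes (Kif22, Kif2c and Hmmr), 3 of 6 cytokinesis genes (Kif23, Prc1 and Anln) and 3 of 7 chromosome structure genes (Ncaph, Top2a and Mki67). No anaphase gene and no transcription factor was called. The value of Pttg1 had the opposite sign, 0.26 ± 0.08, adjusted p = 0.106. With a floor of 50 in place of the added 50, 6 members were called, and without normalization 30. Without normalization the median of all genes was itself -0.08. Relative to the median of all genes, the members' median was -0.31 with the floor and -0.36 without normalization. The shares of all genes called under these settings are not given here, so the counts have no background beside them.

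**Figure D3:**
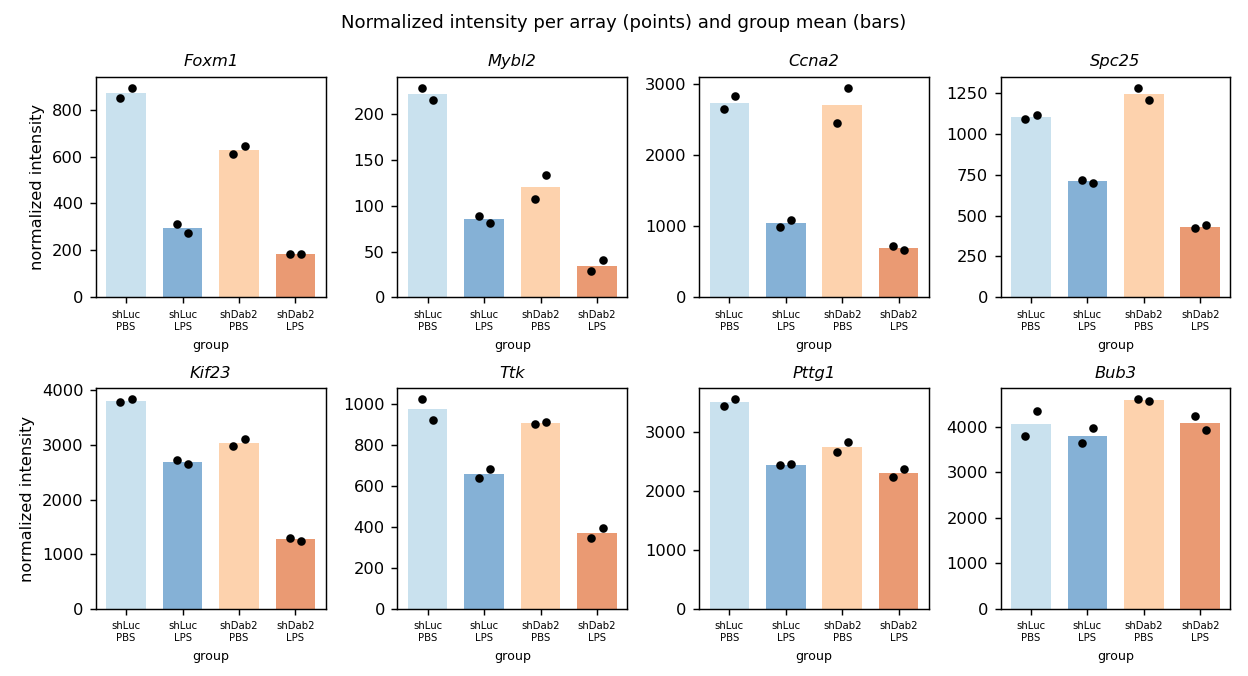
Bars are group means and points the 2 arrays of each group, in normalized intensity on linear axes from 0, for 8 members. Foxm1 and Mybl2 are lower in shDab2 cells with and without LPS, Spc25, Kif23 and Ttk fall further with LPS in shDab2 cells, and Bub3 lies between 3638 and 4611 on all arrays.

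At rest, some of the mitotic genes were lower in shDab2 cells. With PBS 18 of 51 members were called lower and 0 higher, against 6.40% and 5.65% of all genes, and the members' median was -0.16. The level in shDab2 cells was 72.1% to 115% of that in shLuc cells over the 42 brighter members, with a median of 89.3%. The largest differences were those of Mybl2 (-0.68 ± 0.11), Foxm1 (-0.44 ± 0.07), Cenpe (-0.43 ± 0.08, adjusted p = 0.00771), Cdc25c (-0.39 ± 0.07) and Incenp (-0.37 ± 0.05, adjusted p = 0.00146). Aurka, Bub3 and Spc25 read higher on both shDab2 arrays than on both shLuc arrays, at 0.19 ± 0.08, 0.18 ± 0.07 and 0.17 ± 0.06, and none of them passed the test. This resting difference depended on the processing. Without normalization the median was 0.10, with 1 member called lower and 14 higher, while the median of all genes shifted by 0.13, so that relative to it the members stood at -0.03. With any 1 of the 4 PBS arrays left out, 9 to 11 members were called lower.

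With LPS the lines were further apart, with 37 of 51 members called lower in shDab2 cells and 0 higher, against 11.6% and 9.07% of all genes. The median was -0.48, and the level in shDab2 cells was 47.4% to 107% of that in shLuc cells, with a median of 68.3%. The largest differences were in Kif23 (-1.05 ± 0.05, adjusted p = 3.6e-07), Cenpa (-0.94 ± 0.07, adjusted p = 6.85e-06), Aurkb (-0.87 ± 0.06, adjusted p = 3.51e-06), Kif22 (-0.86 ± 0.06, adjusted p = 2.73e-06) and Ttk (-0.76 ± 0.08, adjusted p = 4.45e-05). Cdc25b was level between the lines, at 0.00 ± 0.07, and Bub3 stood at 0.10 ± 0.07. Over the 42 brighter members the line differences with PBS and with LPS, which share no array, correlated at r = 0.50. In all 4 pairwise comparisons 16 members were called lower: Aurkb, Ccnb2, Cdc25c, Cenpa, Ect2, Espl1, Foxm1, Incenp, Kif22, Kif23, Kif4, Mki67, Mybl2, Plk1, Racgap1 and Top2a. The comparisons share arrays, so these are not 4 independent results. The share of all genes called lower in all 4 was not computed, so this count has no background beside it. The list also rests on the normalization. Without it, 1 of the 51 members was called lower between the lines with PBS, and Espl1, Kif22 and Mki67 changed sign there. By their brightest probes, Bub3, Cks2, Kif20a, Ncapg and Nuf2 were called in none.

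For 10 members several probes were measured, and no pair of probes of a gene was called in opposite directions. Both probes of Racgap1 were called alike in every comparison. The dimmest of the 3 Birc5 probes was not called with LPS in shLuc cells (-0.29 ± 0.10, adjusted p = 0.0698), while its other probes were called lower. The dimmer probe of Bub3 read 294 and 298 in shLuc cells with PBS, 246 and 242 with LPS, 381 and 388 in shDab2 cells with PBS, then 361 and 339.5 with LPS. It was higher in shDab2 cells with PBS (0.33 ± 0.07, adjusted p = 0.00863) and with LPS (0.44 ± 0.07, adjusted p = 0.00065), where the brightest probe was not called. It was also called lower with LPS in shLuc cells (-0.24 ± 0.07, adjusted p = 0.0219), unlike the brightest probe. The dimmer probe of Pttg1 read 211 and 203 in shLuc cells with PBS, 204 and 176 with LPS, 143 and 155 in shDab2 cells with PBS, then 124 and 127 with LPS. It did not fall beyond the spread with LPS (-0.10 ± 0.08, adjusted p = 0.488 in shLuc cells) and was lower in shDab2 cells with LPS (-0.45 ± 0.08, adjusted p = 0.00351), unlike the brighter one. The second probes of Ttk and Mki67 were not called for the difference in response (-0.49 ± 0.14, adjusted p = 0.0847 and -0.24 ± 0.09, adjusted p = 0.188), while a second probe of Birc5 was (-0.32 ± 0.07, adjusted p = 0.0267; brightest -0.35 ± 0.09, adjusted p = 0.0562). With LPS the dimmer probes of Bub1, Spc24 and Tpx2 were not called between the lines (-0.02 ± 0.14, adjusted p = 0.947, -0.11 ± 0.07, adjusted p = 0.344 and -0.13 ± 0.11, adjusted p = 0.51), while their brightest probes were, and with PBS the dimmer probe of Kif4 was not (-0.26 ± 0.09, adjusted p = 0.109).

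Genes of the same processes that are not among the 54 moved in the same direction. Of 68 other mitotic genes measured, 55 were called lower and 1 higher with LPS in shLuc cells, against 15.7% and 11.6% of all genes. In shDab2 cells 56 were lower and 3 higher, against 18.0% and 13.4%. The medians were -0.53 and -0.80. Between the lines 21 were lower and 1 higher with PBS, against 6.40% and 5.65% of all genes. With LPS it was 44 and 3, against 11.6% and 9.07%. For the difference in response 20 were called lower and 1 higher, against 3.08% and 2.72%. The same shares of all genes stand beside the counts of the next list. Of 51 genes of DNA replication and G1/S, 47 were called lower with LPS in shLuc and 48 in shDab2 cells, with medians of -0.71 and -1.05, beside -0.55 and -0.86 for the mitotic members. Between the lines 20 of these were lower with PBS and 44 with LPS, 12 were called for the difference in response, and 0 were higher in any of the 5 comparisons. Fbxo5 (Emi1), an inhibitor of the anaphase-promoting complex, read 1724 and 1682 in shLuc cells with PBS, 622 and 606 with LPS, 1229.8 and 1295 in shDab2 cells with PBS, then 229 and 226 with LPS. It changed by -1.40 ± 0.06 in shLuc and -2.24 ± 0.06 in shDab2 cells, and the lines differed in this by -0.84 ± 0.08, adjusted p = 0.000145. Esco2, a cohesin acetyltransferase, and Pimreg changed by -1.48 ± 0.09 and -1.31 ± 0.06 in shLuc cells. All 15 genes listed as induced by LPS were called higher in both lines, against 11.6% and 13.4% of all genes. Like the other lists here, that list was chosen with earlier results of these data known, so none of them is an independent check.

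**Figure D4:**
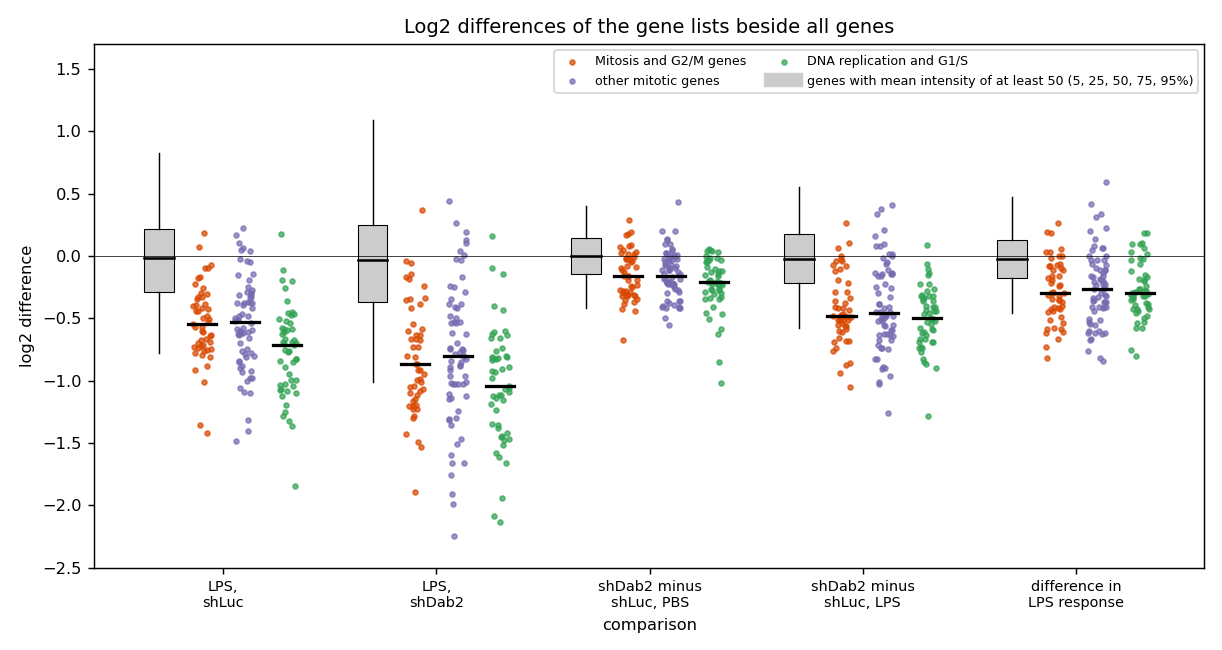
For each of the 5 comparisons, the grey box and whiskers give the 5th, 25th, 50th, 75th and 95th percentiles of the log2 differences of 9505 genes with a mean intensity of at least 50. Points are the members (orange), other mitotic genes (purple) and genes of DNA replication and G1/S (green), with a black bar at each list's median. The medians of the 3 lists lie below the median of all genes in every comparison, least so between the lines with PBS.

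Among the 42 brighter members, 26 had TTTGAA in the RefSeq promoter and 8 did not, the remaining 8 having no promoter in the table. The median LPS difference was -0.58 with and -0.47 without the motif in shLuc cells, and -0.99 and -0.58 in shDab2 cells. The difference in response was called for 15 of the 26 and 1 of the 8, Ncaph. Pttg1, Cks2, Cdc25b and Cenpe, described above with small or unequal LPS differences, were among the 8 without the letters. So were Birc5 (-0.81 in shLuc and -1.16 in shDab2 cells), Mad2l1 (-0.75 and -1.05), Ncaph (-0.65 and -1.09) and Bub1 (-0.44 and -0.73). Bub3 and Ube2c, which moved least, were among the 26 with the letters. These counts describe the members and were not tested.

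**Figure D5:**
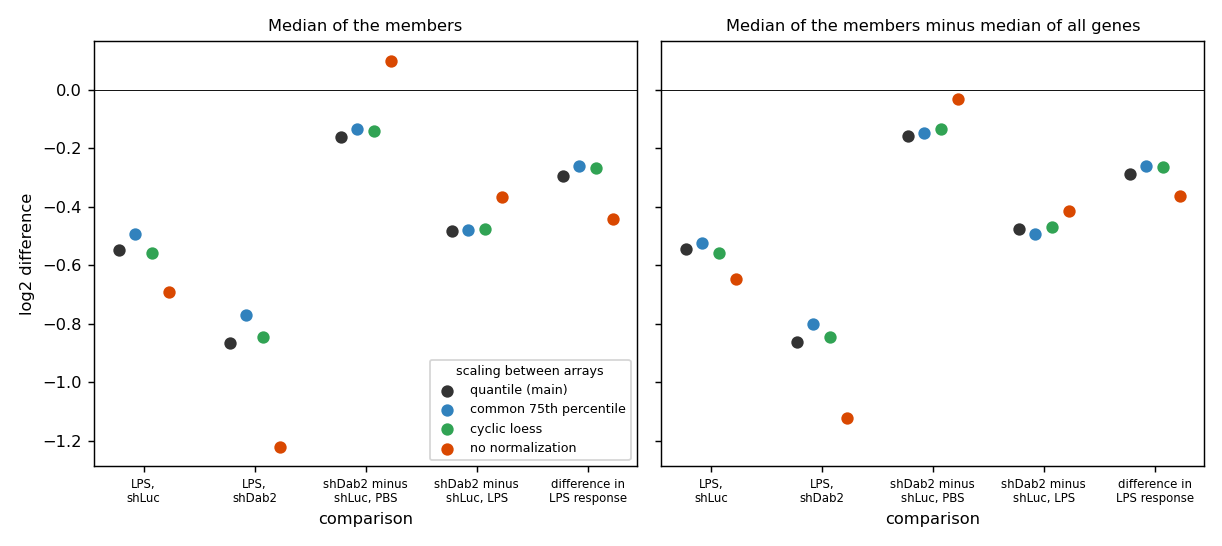
The left panel gives the median log2 difference of the 51 members in each comparison under 4 ways of scaling the arrays, and the right panel the same after subtracting the median of all genes. The LPS comparisons and the comparison of the lines with LPS keep their sign under all 4, while the comparison with PBS changes from -0.16 to 0.10 without normalization on the left and from -0.16 to -0.03 on the right.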

How the data were processed

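RNA of 8 samples, 2 in each of 4 groups, was labelled with Cy5 and hybridised to one-colour arrays of 26423 probes. The deposited values are linear intensity values (-11 to 65470) whose negative numbers show a background subtraction, and which were not scaled between arrays (medians 20 to 37, 75th percentiles 209 to 319). A deposited table of group means served only as a check. It correlated with the mean of the 2 arrays at r = 0.999998 or more, and lay within 1 of it for 74.45% to 98.03% of probes. The background method, scanner software and genome build were not given in the sources used here, nor was a slide or scan batch. Of the probes, 21876 carried 1 symbol and 4547 none in the platform annotation, and all 62 member probes matched a RefSeq gene of the same symbol.

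Intensities were quantile normalized, 50 was added, and log2 values of all probes were fitted in limma 3.58.1 (R 4.3.3) with a mean per group over all 8 arrays and eBayes with a variance trend. Adjusted p is Benjamini-Hochberg over 26423 probes. The 5 comparisons were LPS in each line, the lines with PBS and with LPS, and the difference of the LPS responses. A group wholly under 50 gives a fold only as a bound, computed against 50. The fit was checked on simulated log2 values with known changes in brighter probes, for LPS in shLuc cells only. At each size from -1.5 to 1.5, 50 of 50 changes were recovered, with 11 false calls. That check did not cover the scaling between arrays or changes in dim probes. Arrays have no read depth, and 2 arrays per group limit the precision. Promoters were searched with Python 3.11.15. The members, lists and tests were chosen with earlier results of these data known. All members could be named, by role. Values of every array are given for those with the largest or smallest changes, those whose probes disagree and a few others added for their role after their values were seen. Alternatives covered scaling, offset, filter, variance model, probe choice, threshold (with a ratio rule added after the data were seen), each array left out and the replicate number as a block.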

Additional observations from a re-analysis of the deposited data

Results flagged for a closer look

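For 18 members the LPS difference was itself different between the lines, shDab2 minus shLuc, in the limma test of that difference, and all 18 values were negative. In order of size on the log2 scale they were -0.82 for Spc25, -0.73 for Kif23, -0.66 for Ttk, -0.62 for Kif22, -0.61 for Aurka, -0.59 for Cenpa, -0.58 for Hmmr, -0.57 for Aurkb and -0.54 for Ccna2. The smaller ones were -0.51 for Bub1b, -0.49 for Anln, -0.45 for Top2a, -0.44 for Ncaph, -0.43 for Cdca8, -0.43 for Mki67, -0.41 for Prc1, -0.40 for Kif2c and -0.37 for Plk1. Of these 18, 7 were also lower in shDab2 cells with PBS (Aurkb, Cenpa, Kif22, Kif23, Mki67, Plk1 and Top2a) and 11 were not called there. The part of the scaling between arrays in these values was not tested beyond the alternatives given below, and groups of 2 arrays are too small to look for an array far from the others.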

How the results depend on the processing

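With LPS in either line, and between the lines with LPS, the median of the members stayed below 0 under every alternative. The clearest dependence was on scaling, between the lines with PBS. Without normalization the members' median there was 0.10, 1 member was called lower and 14 higher, and 21 of the 51 changed sign. Of these, 8 were called in one of the fits, namely Bub1b (0.23), Cdca8 (0.18), Kif11 (0.27), Ncaph (0.25), Prc1 (0.24), Espl1 (0.0229), Kif22 (0.0231) and Mki67 (0.0206). The deposited medians of the shDab2 PBS arrays were 36 and 37 and those of the shLuc PBS arrays 20 and 25, and whether that gap is technical was not tested. With each array left out in turn, the members called lower numbered 40 to 44 and 42 to 46 with LPS in shLuc and shDab2 cells, 9 to 18 and 33 to 35 between the lines with PBS and with LPS, and 13 to 16 for the difference in response. In shDab2 cells 0 to 1 was called higher with LPS when an array was left out. That member, Ncapg, was also the 1 called higher with a common 75th percentile, cyclic loess, only probes with a mean of at least 50, no variance trend, robust variance, only the arrays compared, averaged probes and the replicate block. Averaging probes called 1 member (Bub3) higher between the lines with PBS and 1 with LPS, and a floor of 50 called 1 (Spc25) higher with PBS. For the difference in response, 30 members were called without normalization, 6 with a floor of 50 and 11 at an adjusted p under 0.01. Unless printed, the share of all genes called under an alternative was not set beside its count. By a log2 difference past 1.5 after normalization and adding 50, with no test, 0 members were lower in shLuc cells with LPS, 2 in shDab2 cells (Ccna2 and Foxm1; 0.734% of all genes), and 0 in the other 3 comparisons. With nothing added, an alternative chosen after seeing the data, the ratio of group means passed 1.5 in 1 and 4 members with LPS in shLuc and shDab2 cells on normalized and in 3 and 19 on deposited intensities, and in 0 between the lines with PBS or LPS. Replicate numbers did not pair the arrays (r of the replicate difference between groups -0.09 to 0.16), and with the replicate block 42, 45, 17, 36 and 18 members were called lower in the 5 comparisons. Dim probes, including that of Cdk1, limit what can be said of 9 members.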

Other observations

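Of 24 genes that restrain the cell cycle, 4 were called higher and 10 lower with LPS in shLuc cells, beside 11.6% and 15.7% of all genes, and 4 and 12 in shDab2 cells, beside 13.4% and 18.0%. The share called higher was close to that of all genes, while the share called lower was above it, at 41.7% in shLuc and 50% in shDab2 cells. More of the list was thus called lower than higher, although most of the genes given next rose. Cdkn1a (p21), an inhibitor of cyclin-dependent kinases, read 5185 and 5138 in shLuc cells with PBS, 10128 and 10271 with LPS, 8117 and 8326 in shDab2 cells with PBS, then 15468 and 14782 with LPS. It rose with LPS by 0.98 ± 0.05, adjusted p = 2.04e-07 in shLuc and 0.88 ± 0.05, adjusted p = 2.59e-07 in shDab2 cells, and was higher in shDab2 cells with PBS (0.67 ± 0.05, adjusted p = 2.81e-05) and with LPS (0.57 ± 0.05, adjusted p = 3.24e-05). The rise itself did not differ between the lines beyond the spread (-0.10 ± 0.08, adjusted p = 0.615). Gadd45a, a stress protein that can inhibit CDK1, read 155 and 159 in shLuc cells with PBS, 1730.4 and 1721 with LPS, 186 and 189.9 in shDab2 cells with PBS, then 4874 and 4662 with LPS, and rose further in shDab2 cells, at 1.24 ± 0.08, adjusted p = 9.3e-06. Gadd45b did likewise, with a difference of 1.20 ± 0.10, adjusted p = 6.64e-05. E2f8, a repressor of cell cycle genes that is itself expressed in cycling cells, changed by -1.57 ± 0.10 and -1.95 ± 0.10.

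Ccnd1 (cyclin D1), which drives entry into the cycle, read 15061 and 14949 in shLuc cells with PBS, 15364 and 14498 with LPS, 14593 and 14033 in shDab2 cells with PBS, then 8716 and 8949 with LPS. It was not called with LPS in shLuc cells (-0.01 ± 0.06, adjusted p = 0.953) and fell in shDab2 cells (-0.69 ± 0.06, adjusted p = 3.14e-06), and this difference passed the test (-0.69 ± 0.08, adjusted p = 0.000748). Myc read 14.6 and 6.25 in shLuc cells with PBS, 502 and 527 with LPS, 25 and 44.4 in shDab2 cells with PBS, then 1115 and 1145 with LPS. All 4 PBS arrays of Myc were under 50, and the rise with LPS was at least 10.3-fold in shLuc and at least 22.6-fold in shDab2 cells. Cdk6 was also higher with LPS in both lines, at 0.95 ± 0.08 and 1.13 ± 0.08, while Cdk2 was lower, at -0.63 ± 0.07 and -0.96 ± 0.07.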
